A study of Rattus norvegicus with 8 samples.

Results

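The 9 genes described here set how RNA polymerase II passes from pausing into productive elongation and were followed in perfused rat liver. They are Hexim1, Larp7, Mepce, Cdk9, Ccnt1, Ccnt2, Ell2, Aff4 and Supt5h. They were picked by gene symbol, with the earlier result for Hexim1 known, and all 9 of 9 were found among the 14511 named genes of the array. They have 10 probe sets between them, because Larp7 has 2, and its brighter one was used. Because the genes were named with the contrast between the buffers in view, their differences are given as descriptions without p-values.

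Livers of male Wistar rats, 6 to 10 weeks of age, were perfused outside the body with Krebs-Henseleit buffer, a physiological saline. In 4 samples the buffer was normoosmotic (305 mosm/L) and in 4 it was hypoosmotic (225 mosm/L), which draws water into liver cells. Perfusion lasted 180 min in both groups, and the labels give no other difference between them. A perfused liver receives no blood or nervous input, and separate animals within a group are not stated, so p-values here reflect sample-to-sample spread that could be technical. The values are deposited log2 expression values from Affymetrix arrays. With 4 arrays a group, their number limits the precision.

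As background, positive transcription elongation factor b (P-TEFb) is a kinase, Cdk9, bound to a cyclin T, Ccnt1 or Ccnt2. A large pool of it is held inactive in a particle built on the noncoding 7SK RNA, in which Hexim1 inhibits the kinase, Larp7 binds the RNA and protects its end, and Mepce adds the cap to it. When released, P-TEFb phosphorylates the pausing factors, among them the DSIF subunit Supt5h, and the polymerase tail. Part of it acts within the super elongation complex, whose scaffold is Aff4 and to which the elongation factor Ell2 belongs. Hexim1 was named for its induction by hexamethylene bisacetamide, an agent that releases P-TEFb.

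All 6 measured hepatocyte markers, Alb, Apoa1, Ttr, Serpina1, Cyp2e1 and Tat, read over 10 on the log2 scale in both group means, and none passed the test between the groups (limma). All 6 differences were negative, from -0.40 to -0.05. Their summed signal, as log2, ran from 14.75 to 14.87 in normoosmotic and from 14.68 to 14.76 in hypoosmotic arrays. Of the markers of macrophages, sinusoidal endothelium, stellate cells, cholangiocytes, lymphocytes and blood cells, 2 passed, both on the endothelial list of 4. Kdr was higher by 0.66 ± 0.15 (SE) and Oit3 lower by 0.46 ± 0.11 on the log2 scale. Lyve1 and Pecam1, also on that list, were higher by 0.41 ± 0.16 and 0.35 ± 0.11 but did not pass. The summed signal of the endothelial list, as log2, ran from 9.16 to 9.41 in normoosmotic and from 9.29 to 9.79 in hypoosmotic arrays. That of the stellate list ran from 8.77 to 8.93 and, more widely, from 8.39 to 9.45. The part of these marker signals in the results below was not tested. In whole tissue, fewer cells of a type and less RNA per cell cannot be told apart. Hypoosmotic replicate 3 stood apart on the second principal component (28.5, the other arrays from -15.3 to 6.60). For each gene named below, the difference without it is given where it moved by over 1.5 times or turned its sign. For the markers above it is not given, and their differences can depend on that array. Tat, for example, read 11.23 in hypoosmotic replicate 3 and 9.73, 9.79 and 10.43 in hypoosmotic replicates 1, 2 and 4.

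Between the buffers, 3 of the 9 genes were lower in hypoosmotic livers and 0 higher by the rule used for all genes (limma, Benjamini-Hochberg adjusted p under 0.05). The rule called 7.07% of the 14511 genes, 4.62% as lower and 2.45% as higher, and nothing is read from the members' count because they were chosen with this contrast known. With each array centred on its median the split over all genes was 835 lower and 271 higher, in place of 670 and 356. The 3 were the inhibitor Hexim1, the capping enzyme Mepce and the kinase Cdk9. The cyclins, Larp7 and Ell2 lay close to their normoosmotic levels. The same 3 genes were called whichever of the 8 arrays was omitted and under each of the 7 other alternatives. Because the members were chosen with this contrast known, these refits of the same arrays describe only how calls depend on arrays and processing. With the probe sets used, no member had an array value below 3.37, a near-background level set by 53 odorant receptor genes, which the liver hardly uses (their 95th percentile).

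**Figure D1:**
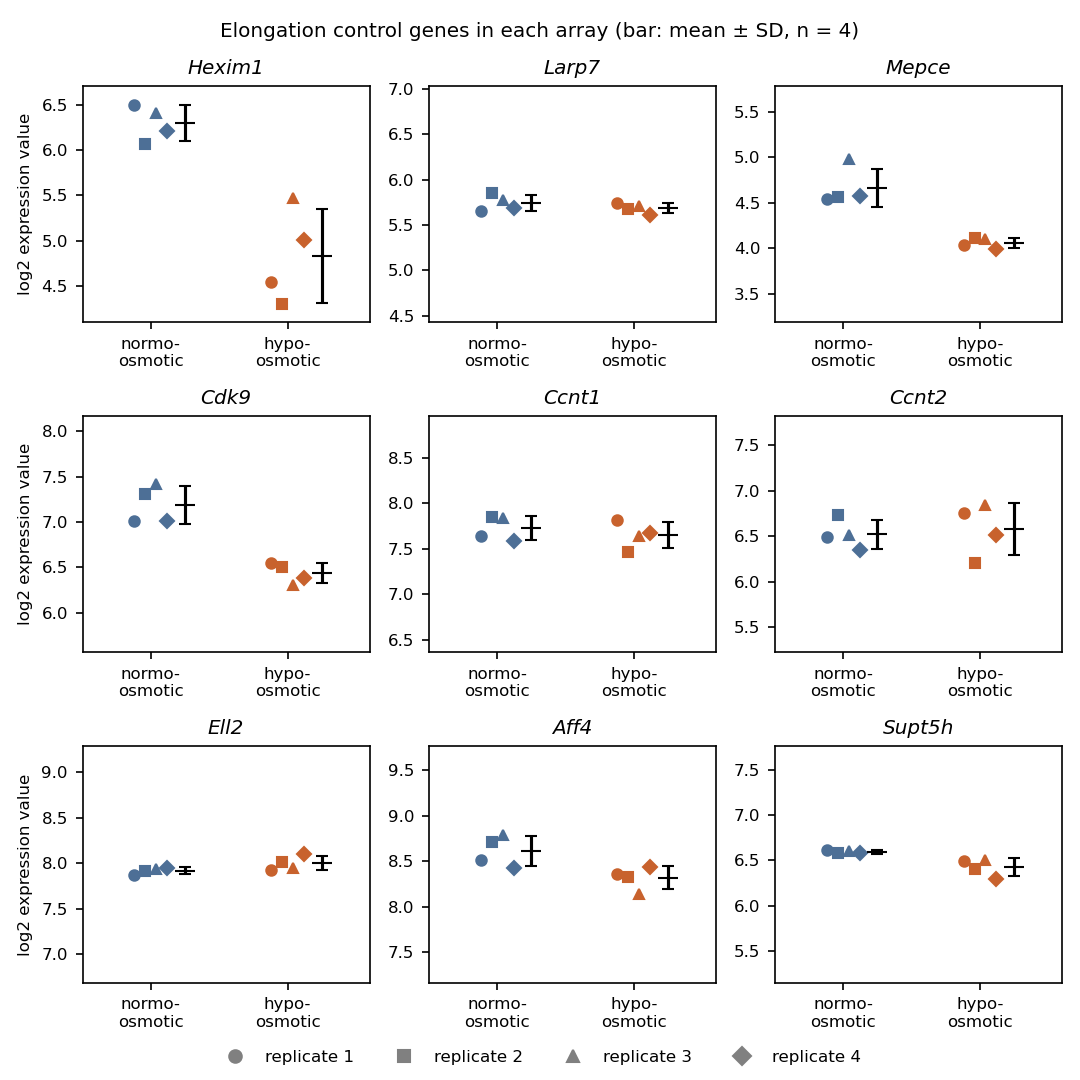
Log2 expression value of each of the 9 genes in every array, with 4 normoosmotic (blue) and 4 hypoosmotic (orange) arrays, symbols by replicate number and bars for mean ± SD. All panels span the same height on the log2 axis. Hexim1, Mepce and Cdk9 show a gap between the groups, while the groups overlap for Larp7, Ccnt1, Ccnt2, Ell2 and Aff4.

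Hexim1, the inhibitory protein of the 7SK particle, read 6.50, 6.07, 6.41 and 6.21 in normoosmotic replicates 1 to 4 and 4.55, 4.31, 5.47 and 5.01 in hypoosmotic replicates 1 to 4. Every hypoosmotic array lay below every normoosmotic one, and the hypoosmotic arrays were spread more widely, with replicates 1 and 2 lowest and replicate 3 highest. The means were 6.30 ± 0.19 and 4.84 ± 0.51 (SD, n = 4 each). The difference was -1.46 ± 0.22 (SE), or 2.76-fold lower. Without hypoosmotic replicate 3 it was -1.67, the largest of the fits that left out 1 array, and the smallest was -1.29. The hypoosmotic SD of Hexim1 was larger than that of 97.0% of all genes, and its normoosmotic SD than that of 66.4%. The median SD over all genes was 0.16 in normoosmotic and 0.18 in hypoosmotic arrays.

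Hexim2, the paralogue that can take the place of Hexim1 in the particle, is the next gene after Hexim1 in the rat assembly GRCr8. Its values were 4.14 ± 0.18 and 4.28 ± 0.11 (SD, n = 4 each), and the difference of 0.14 ± 0.12 did not pass (limma, adjusted p = 0.602). The log2 ratio of Hexim1 to Hexim2 within an array went from 2.16 ± 0.20 to 0.56 ± 0.41, a difference of -1.60. The neighbours thus had unequal measured changes, and the test of that difference was left out because Hexim1 was chosen for its own. Hexim2 lay not far above the near-background level of 3.37. A fall as large as that of Hexim1 could not have been measured in full from there.

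The stretches upstream of Hexim1 and of Mepce are shown because these are the lower members for which the promoter table holds an entry, and that of Hexim2 because its gene lies next to Hexim1. They are the 250 bases before the annotated start, 5′ to 3′ on the gene's strand, from RefSeq on GRCr8. The Hexim1 stretch is chr10:88562639-88562888, that of Mepce chr12:24548346-24548595 and that of Hexim2 chr10:88578844-88579093, all on the plus strand. Capitals mark exact matches, on either strand, to 5 short words. These were the TATA word TATAAA, the CCAAT box CCAAT, the GC box GGGCGG, the E-box CACGTG and the start of the cAMP response element, TGACG.
Hexim1: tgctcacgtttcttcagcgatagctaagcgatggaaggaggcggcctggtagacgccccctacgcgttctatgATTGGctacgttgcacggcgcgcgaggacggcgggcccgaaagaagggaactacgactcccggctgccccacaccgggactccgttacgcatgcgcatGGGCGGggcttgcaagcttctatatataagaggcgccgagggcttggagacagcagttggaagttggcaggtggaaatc
Mepce: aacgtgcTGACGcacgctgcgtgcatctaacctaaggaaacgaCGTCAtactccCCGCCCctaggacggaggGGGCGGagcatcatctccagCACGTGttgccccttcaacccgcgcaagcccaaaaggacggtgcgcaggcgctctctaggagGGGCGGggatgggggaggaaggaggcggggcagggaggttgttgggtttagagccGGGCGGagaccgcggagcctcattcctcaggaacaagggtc
Hexim2: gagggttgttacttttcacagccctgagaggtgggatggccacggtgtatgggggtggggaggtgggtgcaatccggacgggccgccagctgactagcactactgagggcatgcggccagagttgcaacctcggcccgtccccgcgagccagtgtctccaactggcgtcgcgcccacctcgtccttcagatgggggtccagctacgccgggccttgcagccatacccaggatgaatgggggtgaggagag
Hexim1 holds 1 match to CCAAT, whose first base is 177 bases before the start, and 1 to GGGCGG, 79 bases before it. Mepce holds 4 matches to GGGCGG, 1 to CACGTG and 2 to TGACG. The Hexim2 stretch holds none of the 5 words. Of 33465 windows of this length, 34.0% hold CCAAT, 30.5% GGGCGG, 5.59% CACGTG, 18.2% TGACG and 12.9% TATAAA. A match is a description of letters, not a binding site, and some matches can overlap.

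Of the 9 members, 8 had an upstream window, and Cdk9 was the other. All 8 windows were richer in G and C than the median window of 51.2%, from 54.4% for Supt5h to 80.4% for Aff4, and Hexim1 had 60.4%. They held 18 to 39 CG dinucleotides, where the median window held 5. GGGCGG was found in 7 of the 8, TGACG in 6, CCAAT in 5, CACGTG in 2 and TATAAA in 0. Only exact words were counted, so similar letters, such as tatataag in the Hexim1 stretch, are not included. The Hexim1 window holds 24 CG dinucleotides and that of Mepce 21. Among members near their normoosmotic level, that of Ccnt1 holds 26 and that of Larp7 23.

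The other proteins of the 7SK particle differed from each other. Mepce, which caps 7SK RNA, read 4.54, 4.56, 4.98 and 4.57 in normoosmotic and 4.04, 4.11, 4.10 and 3.99 in hypoosmotic replicates 1 to 4. The groups did not overlap, and the hypoosmotic arrays lay close together. These hypoosmotic values lay near the array medians over all probe sets, 3.92 to 4.05. Low signal may therefore limit both their spread and the size of the difference. The difference was -0.60 ± 0.12 (SE), or 1.52-fold lower, and without normoosmotic replicate 3, the highest array, it was -0.50. Larp7, which holds 7SK RNA in the particle, read from 5.65 to 5.85 in normoosmotic and from 5.61 to 5.74 in hypoosmotic arrays, with a difference of -0.06 ± 0.09. A second, dimmer probe set of Larp7 gave 3.79 ± 0.35 and 3.48 ± 0.09, a difference of -0.31 ± 0.16. Its hypoosmotic values ran from 3.35 to 3.54, around the near-background level, so that difference is poorly measured. With both probe sets averaged the Larp7 difference was -0.18.

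The kinase and its cyclins also differed. Cdk9, the catalytic subunit of P-TEFb, read 7.01, 7.31, 7.42 and 7.01 in normoosmotic and 6.55, 6.51, 6.31 and 6.38 in hypoosmotic replicates 1 to 4. Its groups did not overlap, and the mean went from 7.19 ± 0.21 to 6.44 ± 0.11 (SD, n = 4 each), or 1.68-fold lower. The difference of -0.75 ± 0.12 (SE) ranged from -0.81 to -0.67 when 1 array was left out. Ccnt1, the main cyclin partner in most tissues, read from 7.59 to 7.85 and from 7.47 to 7.82, with a difference of -0.08 ± 0.11. Ccnt2, the alternative partner, read from 6.35 to 6.73 and from 6.20 to 6.84, with a difference of 0.06 ± 0.15 that turned to -0.03 without hypoosmotic replicate 3. Both cyclins overlapped between the groups. The log2 ratio of Hexim1 to Cdk9 within an array differed by -0.71 between the groups, and that of Hexim1 to Ccnt1 by -1.38.

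Among the proteins through which P-TEFb acts, values lay closer together. Ell2, an elongation factor of the super elongation complex, read from 7.87 to 7.95 and from 7.93 to 8.10, with a difference of 0.08 ± 0.09. Aff4, the scaffold of that complex, read 8.52, 8.71, 8.79 and 8.43 in normoosmotic and 8.36, 8.33, 8.14 and 8.44 in hypoosmotic replicates 1 to 4. Its groups overlapped by 1 array on each side, and the difference of -0.30 ± 0.12 was -0.24 without hypoosmotic replicate 3, the lowest array. Supt5h, a subunit of the pausing factor DSIF and a P-TEFb substrate, read 6.62, 6.58, 6.60 and 6.58 against 6.49, 6.41, 6.51 and 6.29. Its groups did not overlap although the difference was small, -0.17 ± 0.09. Among all genes, the groups did not overlap in 13.5%, with hypoosmotic arrays lower in 8.21% and higher in 5.33%. Nothing is read from the members' count here either. Hypoosmotic arrays were wholly lower for 4 of the 9 members, Hexim1, Mepce, Cdk9 and Supt5h, and Supt5h had the narrowest normoosmotic spread of the 9 (SD 0.02).

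**Figure D2:**
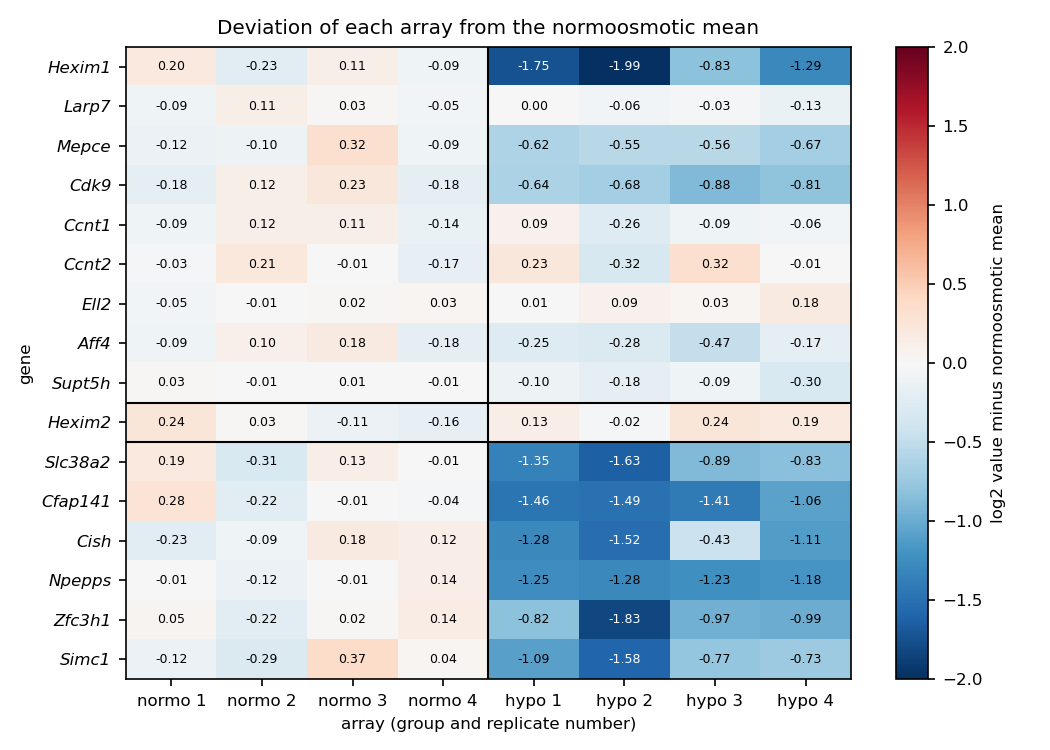
Each cell is the log2 value of a gene in an array minus the normoosmotic mean of that gene, for the 9 members, Hexim2 and the 6 genes with the profile nearest to Hexim1, in 4 normoosmotic and 4 hypoosmotic arrays. Hexim1 runs from -1.99 in hypoosmotic replicate 2 to -0.83 in replicate 3, whereas Cdk9 runs from -0.88 in replicate 3 to -0.64 in replicate 1.

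The order of the hypoosmotic arrays was not shared among the lower members. Hexim1 was highest in hypoosmotic replicate 3, at -0.83 relative to its normoosmotic mean, while Cdk9 and Aff4 were lowest in that array. Over the 9 members no single array held the highest value of its group more than 3 times. Normoosmotic replicate 4 held the lowest value of its group alone for Ccnt1, Ccnt2 and Aff4. It shared the lowest with replicate 1 for Cdk9 (7.01) and with replicate 2 for Supt5h (6.58). With ties counted for the lower replicate number, normoosmotic replicate 1 held the lowest 4 times and replicate 4 held it 3 times. The gene with the profile nearest to Hexim1 over the 8 arrays, each gene taken relative to its normoosmotic mean, was Slc38a2, which imports neutral amino acids with sodium, at a root mean square distance of 0.25 on the log2 scale. Next came Cfap141 (distance 0.30), whose hypoosmotic values of 3.00, 2.97, 3.05 and 3.40 lie mostly under the near-background level, so that its distance and the order of its arrays are uncertain. It was followed by Cish, an inhibitor of cytokine signalling (0.33), the aminopeptidase gene Npepps (0.36), Zfc3h1, which takes part in nuclear RNA decay (0.37), and Simc1 (0.37). Slc38a2, Cish, Npepps, Zfc3h1 and Simc1, like Hexim1, had their lowest value in hypoosmotic replicate 2. This likeness uses the same contrast as the choice of Hexim1 and is a description of 8 arrays. Because the genes were picked by closeness to Hexim1 over these arrays, a shared lowest array follows in part from that choice. The hypoosmotic values of Npepps differed little, from 5.63 to 5.74. Among the members, Cdk9 was nearest to Hexim1, at 0.66, with 194 of all genes nearer, and Mepce followed at 0.70 with 294 nearer.

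The remaining genes of the elongation machinery were taken from 7 lists of known factors. These lists were written with earlier results of these data known, so their shares are descriptions. Of 83 measured genes 22 fell, 0 rose and 61 did not pass (limma, adjusted p under 0.05), or 26.5% lower against 4.62% of all genes. Their median difference was -0.21, where that of all genes was 0.02. Without the 30% dimmest genes of the array, 22 still fell, and the share called lower among all genes left was larger, 7.32%. The count was 11 without normoosmotic replicate 2, 12 without normoosmotic replicate 3 or hypoosmotic replicate 2 and 14 without normoosmotic replicate 4. The share of all genes called lower was also smaller in these fits, 2.85%, 2.28%, 2.69% and 2.76% in that order. Of the 22 genes, 11 passed whichever array was omitted. Of the 22, 14 passed under all 7 other alternatives. Rbm25 and Usp10, whose known roles lie in splicing and in removing ubiquitin, are not known subunits of the complexes their lists are named for. Without them, a choice made after their values were seen, 20 of 81 genes fell. For genes that did not pass in every such fit, the number of the 8 omissions passed is given, then the range of the adjusted p and the array behind its highest value.

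**Figure D3:**
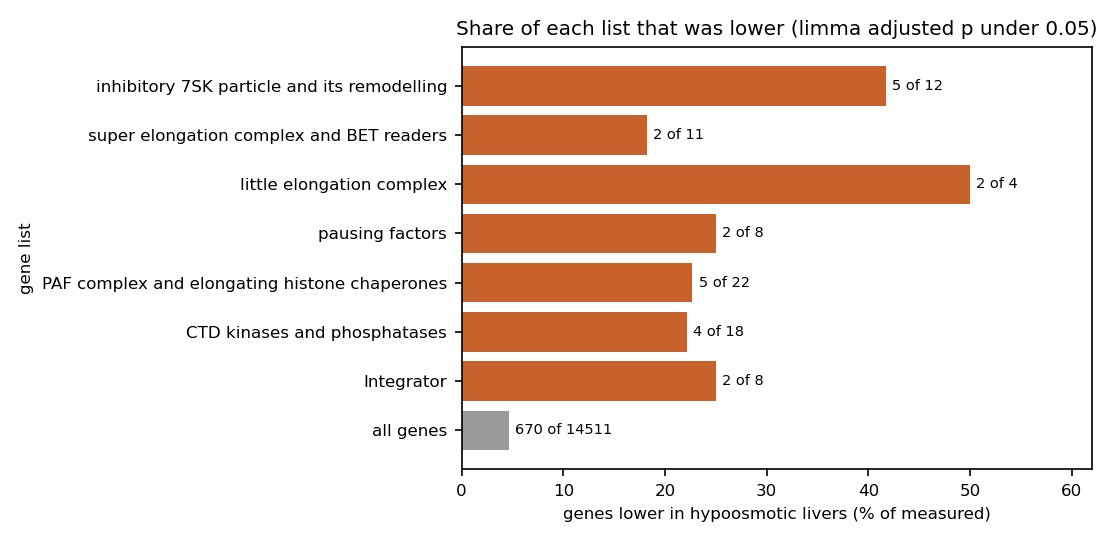
Bars give the percentage of measured genes in each of 7 elongation lists that were lower in hypoosmotic livers (limma, adjusted p under 0.05), with counts beside them and all genes in grey. The shares run from 18.2% for the super elongation complex list to 50.0% for the 4 genes of the little elongation complex list, 1 of whose 2 lower genes, Usp10, is not a known subunit, and 4.62% for all genes.

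Of 12 measured genes of the 7SK particle and the factors that remodel it, 5 fell and 0 rose, with a list median of -0.34. Jmjd6, a demethylase reported to take part in freeing P-TEFb, read from 6.52 to 7.29 in normoosmotic and from 5.60 to 6.10 in hypoosmotic arrays. It fell by 0.94 ± 0.18 (SE) on the log2 scale (adjusted p = 0.0117) and passed in all 8 fits. Dhx9, an RNA helicase found on 7SK RNA, fell by 0.65 ± 0.13 and also passed in all 8. The helicase Ddx21, which releases P-TEFb at ribosomal protein genes, fell by 0.78 ± 0.18 and passed in 3 (0.0213 to 0.0779, normoosmotic replicate 3). The phosphatase Ppm1g, which can free P-TEFb from the particle, fell by 0.61 ± 0.14 and passed in 2 (0.0133 to 0.0865, normoosmotic replicate 3). The splicing factor Srsf2, which binds 7SK at promoters, fell by 0.59 ± 0.13 and passed in 5 (0.0257 to 0.0735, normoosmotic replicate 3). In 7 of the 12 genes every hypoosmotic value lay below every normoosmotic value, as in 8.21% of all genes. The 5 that fell are among them, which adds no separate support because the same arrays gave their calls. Leaving out normoosmotic replicate 2 or 3, or hypoosmotic replicate 2, brought the number that fell to 2, and leaving out normoosmotic replicate 4 to 3. 7SK RNA itself was not analysed here.

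Of 11 measured genes of the super elongation complex and the bromodomain readers, 2 fell and 0 rose. Mllt1, the acetyl-lysine reader of the complex also called ENL, read from 5.73 to 5.91 and from 4.77 to 5.42, and fell by 0.74 ± 0.13 (adjusted p = 0.0102, limma), which held in all 8 fits. Dot1l, the histone H3 methyltransferase that shares partners with the complex, fell by 0.68 ± 0.17 and passed in 2 (0.0191 to 0.0967, normoosmotic replicate 3), and not with all probe sets tested together (0.0514). Ell, the paralogue of Ell2, had a difference of 0.25 ± 0.15 and Aff1, the paralogue of Aff4, one of 0.17 ± 0.15, and neither passed (limma, adjusted p = 0.417 and 0.617). Without hypoosmotic replicate 3 the difference was 0.16 for Ell and 0.32 for Aff1. Only 1 gene of this list fell without normoosmotic replicate 2, 3 or 4 or hypoosmotic replicate 1, 2 or 3. Of 4 genes on the little elongation complex list, which serves small nuclear RNA genes, 2 fell. Its scaffold gene Ice1 had tight groups, 5.50 ± 0.03 against 5.11 ± 0.05 (SD, n = 4 each), and passed in 3 (0.0421 to 0.0681, hypoosmotic replicate 2). Usp10, a ubiquitin protease that is not a known subunit, fell by 0.86 ± 0.13 and passed in all 8. Without it 1 of 3 genes fell, a count added after its value was seen. The count of this list was 1 without any single normoosmotic array or hypoosmotic replicate 2.

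**Figure D4:**
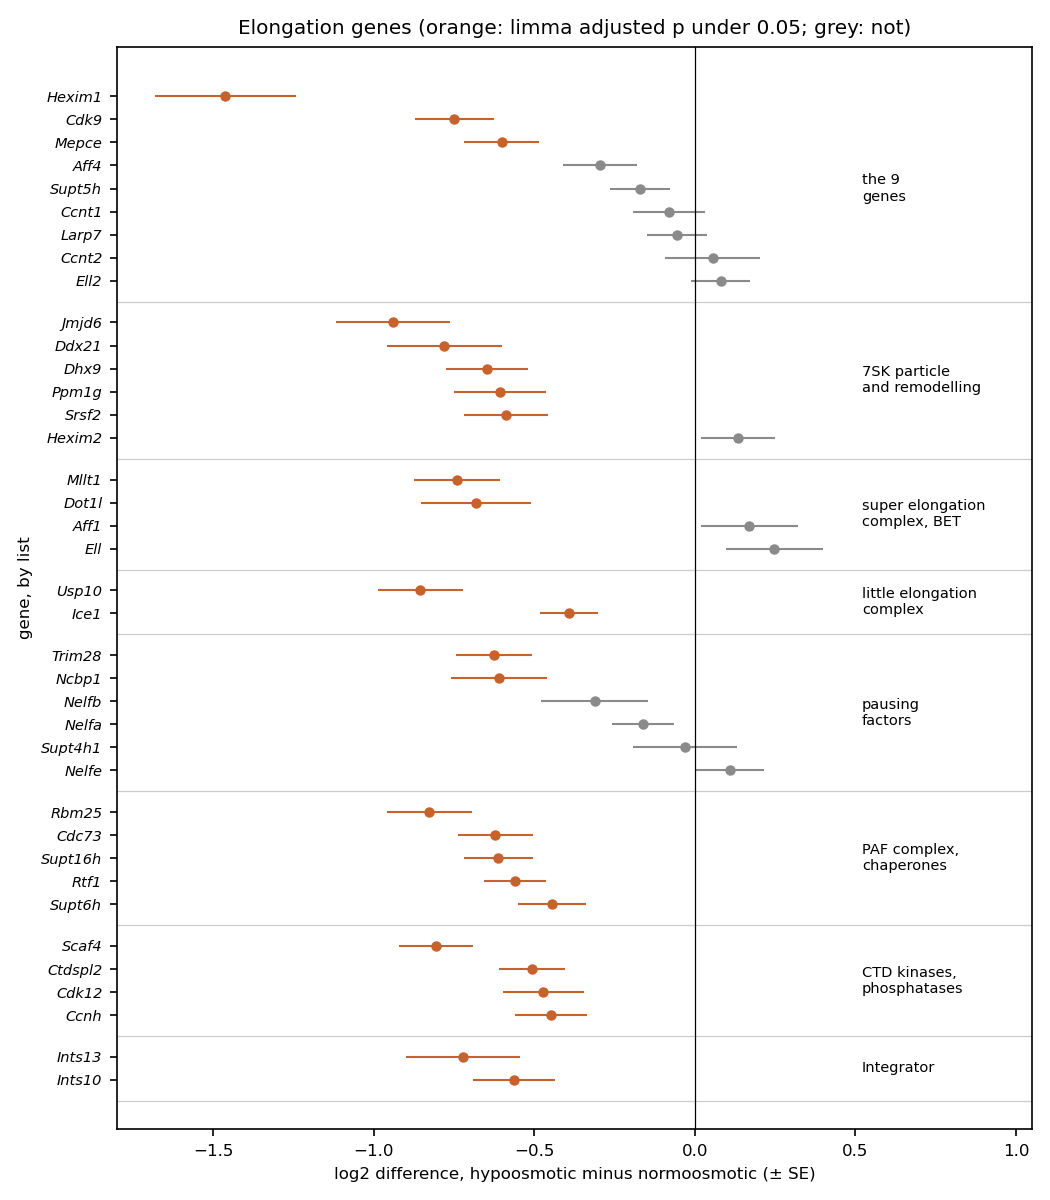
Log2 difference, hypoosmotic minus normoosmotic, with its SE for the 9 members and for the genes of the 7 lists that passed or were to be shown whatever their value, orange where the limma adjusted p was under 0.05. Hexim1 lies farthest from 0, at -1.46, and the paralogues Hexim2, Ell and Aff1 lie on the positive side.

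Of 8 measured pausing factors, 2 fell and 0 rose. These were Trim28, a chromatin cofactor with a role in pausing, by 0.63 ± 0.12 in all 8 fits, and the cap-binding protein gene Ncbp1, by 0.61 ± 0.15, which passed in 2 (0.0164 to 0.0986, normoosmotic replicate 3) and not after a further quantile normalization (0.0565). The count was 1 without normoosmotic or hypoosmotic replicate 1, 2 or 3. The core pausing subunits did not pass. For Supt4h1, the partner of Supt5h in DSIF, the difference was -0.03 ± 0.16, and -0.09 without hypoosmotic replicate 3. It was -0.16 ± 0.10 for Nelfa, -0.31 ± 0.17 for Nelfb and 0.11 ± 0.11 for Nelfe, all subunits of the pausing complex NELF (adjusted p = 0.403, 0.330 and 0.667, limma). Without hypoosmotic replicate 3 the Nelfb difference was -0.17.

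Of 22 measured genes of the PAF complex and the chaperones that travel with the polymerase, 5 fell and 0 rose. The PAF subunit gene Cdc73 went from 6.70 ± 0.06 to 6.08 ± 0.21 (SD, n = 4 each), and Rtf1, which joins the same complex, from 6.92 ± 0.09 to 6.36 ± 0.07. Supt16h, a subunit of the histone chaperone FACT, fell by 0.61 ± 0.11 (SE) and the splicing factor gene Rbm25 by 0.83 ± 0.13. These 4 passed in all 8 fits. Supt6h, a histone chaperone that binds the elongating polymerase, fell by 0.45 ± 0.11 and passed in 2 (0.0403 to 0.0967, normoosmotic replicate 3) and not after quantile normalization (0.0522).

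Of 18 measured genes that phosphorylate, dephosphorylate or bind the polymerase tail, 4 fell and 0 rose. Scaf4, which binds the tail and prevents early termination, read from 6.54 to 6.79 in normoosmotic and from 5.60 to 6.01 in hypoosmotic arrays. It had the smallest adjusted p of the 83 genes, 0.00446, and fell by 0.81 ± 0.12. The phosphatase-like gene Ctdspl2 fell by 0.51 ± 0.10, and both passed in all 8 fits. Ccnh, the cyclin of the Cdk7 kinase, fell by 0.45 ± 0.11 and passed in 2 (0.0381 to 0.0950, hypoosmotic replicate 2). Cdk12, another tail kinase of elongation, fell by 0.47 ± 0.13 and passed in 1 (0.0294 to 0.134, normoosmotic replicate 3). After quantile normalization neither passed (adjusted p = 0.0685 and 0.0510, limma), nor with all probe sets tested together (0.0502 and 0.0640). The count was 2 without any single normoosmotic array or hypoosmotic replicate 2. Of 8 measured genes of Integrator, which ends transcription of paused genes, 2 fell and 0 rose. Ints13 fell by 0.72 ± 0.18 and passed in 2 (0.0186 to 0.0986, normoosmotic replicate 3), and Ints10 by 0.56 ± 0.13 in 6 (0.0409 to 0.0669, normoosmotic replicate 1). Neither Integrator gene passed without normoosmotic replicate 1 or 2.

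Among 16 measured short-lived transcripts whose production is known to need P-TEFb, 5 fell and 0 rose, 31.2% lower against 4.62% of all genes, and the median difference was -0.19. Without the 30% dimmest genes of the array the 5 still fell, and the share called lower among all genes left was 7.32%. Mcl1, a survival factor of the Bcl-2 family, went from 10.77 ± 0.16 to 10.22 ± 0.16 (SD, n = 4 each) and passed in 4 of the 8 fits (0.0223 to 0.0649, normoosmotic replicate 4). With its probe sets averaged its difference was -0.37 and did not pass (adjusted p = 0.111, limma). The transcription factor gene Myc fell by 0.71 ± 0.16 (SE, in 4, 0.0165 to 0.0604, normoosmotic replicate 3) and Klf6 by 0.55 ± 0.15 (in 2, 0.0355 to 0.123, normoosmotic replicate 3). Ier3, an early response gene, fell by 0.83 ± 0.19 (in 3, 0.0210 to 0.0645, normoosmotic replicate 1) and the chemokine gene Cxcl2 by 0.95 ± 0.25 (in 1, 0.0139 to 0.118, normoosmotic replicate 2). Klf6 did not pass after quantile normalization (0.0539), Cxcl2 not with robust variances and an intensity trend (0.0595), and neither with all probe sets tested together (0.0614 and 0.0640). None of the 5 passed in all 8 fits, and the count was 0 without normoosmotic replicate 3, 1 without normoosmotic replicate 2 or hypoosmotic replicate 1 or 2, 2 without normoosmotic replicate 1 or 4 and 3 without hypoosmotic replicate 3. Fos, named after its value was seen, lay the other way, at 5.12 ± 0.14 (SD) over the normoosmotic arrays and 5.46, 6.31, 8.15 and 5.36 in the hypoosmotic ones. Its groups did not overlap, but the difference of 1.21 ± 0.49 (SE) did not pass (adjusted p = 0.179, limma) and was 0.59 without hypoosmotic replicate 3.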

How the data were processed

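RNA of 8 samples of perfused liver was measured on Affymetrix whole-transcript arrays. The authors deposited log2 expression values for 27596 probe sets, made with RMA, Transcriptome Analysis Console 4.0 and Affymetrix Expression Console per the submitters' processing notes. Their roles and order, and the genome build, were not given in the sources used here. RMA equalises the arrays, so a shift shared by most genes would be removed. Array medians lay between 3.92 and 4.05.

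Gene symbols came from GEO's annotation of the array. By it, 15316 probe sets had 1 symbol, 317 several and 11963 were not named here, and the highest-mean probe set was kept for each of 14511 genes. Groups came from the sample titles. Differences were fitted in R 4.3.3 with lmFit and eBayes of limma 3.58.1, with group as the only term. Two-sided p-values were Benjamini-Hochberg adjusted across every gene, at a threshold of 0.05, and the fit was tested on simulated data. Plots were drawn with Python 3.11.15, pandas 2.3.3 and matplotlib 3.10.9.

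The members and lists were chosen with earlier results of these data known. Beyond the 9 members, the text names every listed gene that passed, Hexim2, Ell, Aff1, Supt4h1 and the NELF genes whatever their value, and the 6 profiles nearest to Hexim1. Of 109 entries of the 7 elongation lists, aliases included, 83 were measured. The alternatives tried were a block for the replicate number, robust variances with an intensity trend, a further quantile normalization, median centring, leaving out the 30% dimmest genes, averaging probe sets, testing all probe sets, and leaving out each array. No scan or batch information was used here.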

Additional observations from a re-analysis of the deposited data

Results flagged for a closer look

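Among 53 named genes in both groups of 4, the array farthest out was separated from the others by more than Dixon's 95% limit in 7 of 106 groups, and chance gives about 1 in 20. Among the 9 members this was so for Mepce, at 4.98 in normoosmotic replicate 3 with the other 3 arrays from 4.54 to 4.57. Nelfe was low in normoosmotic replicate 1 (4.99, others 5.14 to 5.17) and Cxcl2 high in normoosmotic replicate 2 (10.55, others 10.17 to 10.22). The Integrator partner gene Nabp2 was low in normoosmotic replicate 4 (6.19, others 6.51 to 6.53) and high in hypoosmotic replicate 2 (6.90, others 6.73 to 6.75). Mllt3, a super elongation complex reader, was low in hypoosmotic replicate 3 (4.31, the other 3 all at 5.20), and Zfc3h1 was low in hypoosmotic replicate 2 (4.78, others 5.62 to 5.79). The last 2 genes and Nabp2 were checked after their values had been seen or because of their likeness to Hexim1.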

How the results depend on the processing

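The count of 3 lower and 0 higher members held in all 15 alternatives, and the Hexim1 difference stayed between -1.67 and -1.29 with 1 array left out. The count of other elongation genes that fell, 22, ranged from 11 to 23 with 1 array left out, and those that rose from 0 to 2, where Mllt3 (0.54, adjusted p = 0.0428) and Ssu72 (0.50, adjusted p = 0.0322) passed without hypoosmotic replicate 3 (limma). After a further quantile normalization 1 rose, Nabp2 (0.39, adjusted p = 0.0404). The short-lived transcripts that fell, 5, ranged from 0 to 4 with 1 array left out, and were 3 when all probe sets were tested together. With 1 array left out, the share of all genes called lower ranged from 2.28% to 4.54%. The small Supt4h1 difference changed sign after quantile normalization (0.028) and in some fits with 1 array left out, which ranged from -0.14 to 0.093. The causes were not tested. With the replicate number as a block, 15 other elongation genes fell, 4 short-lived transcripts and the same 3 members. Ppm1g, Srsf2, Dot1l, Ice1, Ncbp1, Supt6h and Klf6 did not pass with it (adjusted p from 0.0518 to 0.0592, limma), nor did Cdk12 (0.0811). The numbers were not taken as pairs, and whether they mark pairs was not tested. Correlations of same-numbered deviations were 0.01, 0.26, 0.12 and 0.06. Normoosmotic replicates 2, 3 and 4 matched the hypoosmotic array of their own number best, and normoosmotic replicate 1 matched hypoosmotic replicate 3. With the block the SE of the Hexim1 difference was 0.17, in place of 0.22. Of the other elongation genes, 4 lay below the near-background level, which limits what their values show.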
